A study of Drosophila melanogaster with 6 samples.

Results

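The lipophorin system of Drosophila melanogaster is described here through 5 genes: apolpp, Apoltp, Mtp, LpR1 and LpR2. They were taken by name from the platform annotation, through the current symbol or a synonym, and all 5 of the 11982 genes measured were found. LpR1 had 2 probe sets (a probe set is the group of array probes that reads one transcript) and the others 1 each, so 6 probe sets carry the results. The set was chosen by function and by the measured difference of apolpp between mutant and wild type larvae: apolpp lies on chromosome 4 and differed in the opposite direction from most genes there. The values of the 5 genes in that comparison are therefore a description, without a test.

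The study measured total RNA of whole larvae of instar 1 on 6 Affymetrix arrays. The mutant group holds 3 arrays of larvae mutant for Pof, named Pof D119 in the study's title, and the other group holds 3 arrays of wild type larvae. Each array used RNA pooled from 200 larvae, so both sexes and every tissue contribute. The labels state neither the parental stocks nor the larvae's age in hours, and no source used here describes the D119 mutation.

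Lipophorin is the main lipoprotein of insect blood and carries diacylglycerol, sterols and other lipids between the gut, the fat body and the other organs. Its protein backbone is made by the fat body, the insect's counterpart of liver and adipose tissue. Lipid is loaded onto it inside the secreting cell and again at the gut, and tissues take lipid up through receptors of the LDL receptor family. In flies, lipophorin particles also carry lipid-linked signals such as Hedgehog.

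All values are log2 expression values made with RMA, in which a step of 1 is a doubling. Array medians lay between 6.46 and 6.56. Wild type replicate 1 stood apart: its correlations with wild type replicates 2 and 3 over all probe sets were r = 0.980 and 0.979, against 0.993 to 0.996 among the mutant arrays and 0.998 between wild type replicates 2 and 3. The median of 97 cuticle genes was 9.51 on that array, against 6.81 to 6.96 on the mutant arrays and 6.79 and 6.87 on the other wild type arrays. On mutant replicate 2 the 3' minus 5' signal of 3 control messenger RNAs, a sign of RNA quality, averaged 2.03, against 1.20 to 1.48 on the other arrays. Both arrays were kept, and values without them stand beside the differences they moved most. The Pof probe set read 8.35, 8.44 and 8.43 on the mutant arrays, against 6.74, 6.83 and 6.82 on the wild type arrays, a difference of 1.61 (SE 0.07, limma adjusted p = 9.5e-05). The signal of this probe set was thus higher, not lower, on the arrays labelled as mutant. The set has the suffix _s, and whether it reads only Pof transcripts was not tested. Where this probe set lies with respect to the mutation is unknown here, so it does not check the labels, and every direction below rests on them.

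The gene apolpp encodes apolipophorin, the precursor that is cut into both large backbone proteins of the lipophorin particle. Its values were 13.11, 13.29 and 13.26 in mutant larvae, against 12.96, 12.76 and 12.74 in wild type larvae. All 3 mutant values lay above all 3 wild type values. The group means were 13.22 ± 0.10 in mutant larvae and 12.82 ± 0.12 in wild type larvae (SD, n = 3 each), a log2 difference of 0.40 (SE 0.09), which is 1.32-fold. The probe set was among the brightest, between rank 143 and rank 243 from the top of the 18769 probe sets on every array. Wild type replicate 1 was the highest wild type array for apolpp, and without it the difference was 0.48. Mutant replicate 2, the array with the largest 3' to 5' difference, was the highest of all, and without it the difference was 0.37. Over the 15 other settings tried it lay between 0.36 and 0.48.

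Apoltp encodes the apolipoprotein of the lipid transfer particle, a second lipoprotein that moves lipid from the gut onto lipophorin and helps receptors take lipid up. It read 11.01, 11.29 and 11.05 in mutant larvae, against 11.05, 10.98 and 10.96 in wild type larvae. The groups overlapped, and mutant replicate 2 alone stood clear of the rest. The means were 11.12 ± 0.15 in mutant larvae and 11.00 ± 0.05 in wild type larvae (SD, n = 3 each), a difference of 0.12 (SE 0.09). Without mutant replicate 2 the difference was 0.04.

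Mtp encodes the microsomal triglyceride transfer protein, which loads lipid onto both lipoproteins in the endoplasmic reticulum. It read 7.79, 8.02 and 7.85 in mutant larvae, against 8.50, 7.91 and 7.91 in wild type larvae. A single array, wild type replicate 1, stood above the remaining 5, which lay within 7.79 to 8.02. The means were 7.89 ± 0.12 in mutant larvae and 8.11 ± 0.34 in wild type larvae (SD, n = 3 each), a difference of -0.22 (SE 0.17). Without wild type replicate 1, the array on which cuticle genes were high, it was -0.02. The part of that array's cuticle signal in the reading of Mtp was not tested.

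LpR1 and LpR2 encode the lipophorin receptors, members of the LDL receptor family, and are near neighbours on arm 3R, with 1 noncoding gene, lncRNA:CR46102, starting between them in the reference annotation. The brighter LpR1 probe set read 9.09, 9.32 and 9.25 in mutant larvae, against 9.11, 9.40 and 9.40 in wild type larvae. The groups overlapped, and replicate 1 was the lowest array in both. The means were 9.22 ± 0.12 in mutant larvae and 9.30 ± 0.17 in wild type larvae (SD, n = 3 each), a difference of -0.08 (SE 0.11). It was -0.18 without wild type replicate 1, -0.13 without mutant replicate 2 and -0.01 without mutant replicate 1. The dimmer LpR1 probe set read 4.62, 4.55 and 4.62 in mutant larvae, against 4.47, 4.41 and 4.52 in wild type larvae. These groups did not overlap, and the difference was 0.13 (SE 0.07). The dimmer set lay below the lower quartile of all 6 arrays, and with no detection calls it is not known whether it read any LpR1 transcript above background. The mean of both LpR1 sets gave 0.03, so the sign for LpR1 depends on which set is read.

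LpR2 varied most among the 5 genes. It read 7.92, 8.70 and 8.46 in mutant larvae, against 7.66, 8.45 and 8.65 in wild type larvae. Here too replicate 1 was the lowest array of each group. The means were 8.36 ± 0.40 in mutant larvae and 8.25 ± 0.53 in wild type larvae (SD, n = 3 each), a difference of 0.11 (SE 0.29) that was well inside the spread of either group. It was -0.19 without wild type replicate 1, -0.06 without mutant replicate 2 and 0.33 without mutant replicate 1. The LpR2 probe set has the suffix _a, which marks sets that match several transcripts of one gene, so its reading sums over LpR2 isoforms.

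**Figure D1:**
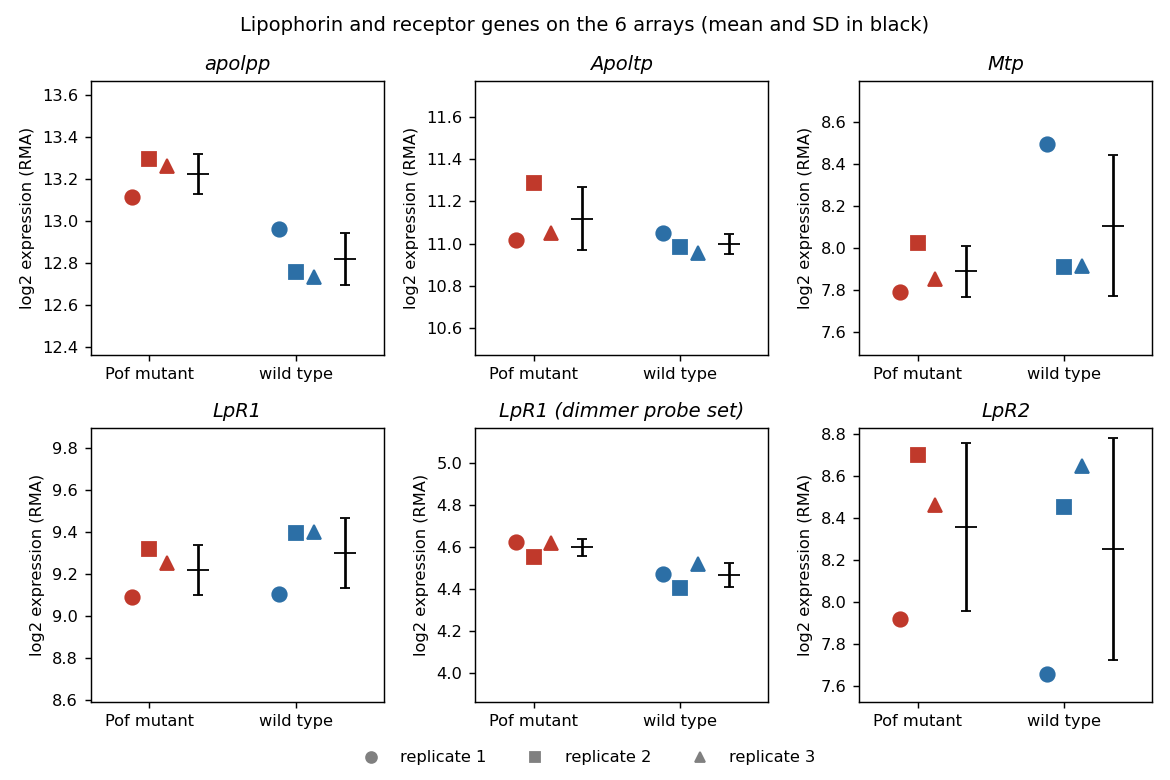
Log2 expression (y axis, a span of 1.3 in each panel) of the 6 probe sets in Pof mutant (left, red) and wild type (right, blue) larvae, with each replicate as a marker and the mean and SD of 3 arrays in black. Only apolpp and the dimmer LpR1 set have groups that do not overlap; replicate 1 is low for the brighter LpR1 set and for LpR2 in both groups, and wild type replicate 1 is high for Mtp.

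In the limma fit across all probe sets, a call is an adjusted p under 0.05 after Benjamini-Hochberg adjustment. Of the 5 genes 0 were called, and 4.09% of all genes were (490 of 11982; 2.65% higher and 1.44% lower in mutant larvae). At an unadjusted p under 0.05 limma gave 2009 of the 11982 genes. The groups did not overlap for 1 of the 5 genes, apolpp, as for 22.4% of all genes. With eBayes settings of trend and robust, with array weights, or without wild type replicate 1, 1 of the 5 was called, apolpp, which was higher in mutant larvae. Because the direction of apolpp helped to choose the set, nothing is read from these counts. In whole larvae, fewer cells of a type and less RNA per cell cannot be told apart.

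The place of apolpp on its chromosome was the reason for its choice. Chromosome 4 is the small, largely heterochromatic autosome along which the Pof protein is known to bind. Of its 65 measured genes, 52 were lower in mutant larvae and 13 higher, with a median difference of -0.14 (-0.21 to -0.07 with single arrays left out), against medians of 0.02 to 0.03 on X, 2L, 2R, 3L and 3R. The difference of apolpp was the highest of the 65, and lay 0.54 above the chromosome's median. It remained the highest in 13 of the 15 other settings and was the second highest without mutant replicate 2 or without wild type replicate 2. The filter of probe sets, eBayes with trend and robust, and the replicate block could not change the reported rank, since they alter no difference. Because apolpp was chosen for its direction on this chromosome, its rank is a description and not a test. On chromosome 4 limma called 0 genes higher and 6 lower, which is 9.23%, against 4.09% of all genes. Groups without overlap were found for 3 of the 65 chromosome 4 genes with higher values in mutant larvae, and for 11 with lower values. The 3 higher ones were apolpp, Mpv17 (0.14) and Sox102F (0.13), the last 2 chosen after their values were seen. Over all genes the groups did not overlap for 22.4% in either direction, and for 14.5% with higher values in mutant larvae.

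The genes beside apolpp on chromosome 4 had differences close to or below 0. On one side the 3 nearest measured genes were Zyx, which encodes the adhesion protein zyxin, with a difference of -0.07, ATPsynbeta, the beta subunit of mitochondrial ATP synthase, with -0.08, and CG11076 with -0.005. On the other side they were Actbeta, which encodes an activin ligand, with -0.26, sv, a Pax family transcription factor gene, with -0.09, and Cals, which encodes calsyntenin, with -0.14. The groups overlapped for all 6 neighbours, and their SEs lay between 0.10 and 0.22. ATPsynbeta read 13.38, 12.94 and 13.49 in mutant larvae, against 13.38, 13.37 and 13.31 in wild type larvae. Its lowest reading was on mutant replicate 2, the array on which apolpp was highest. Without that array ATPsynbeta gave 0.08 and CG11076 gave 0.05. Zyx gave 0.03 without mutant replicate 1 and sv 0.007 without wild type replicate 1. Actbeta and Cals stayed below 0 with each single array left out. The remaining members lie on large arms, Apoltp and Mtp on 2L and LpR1 and LpR2 on 3R.

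**Figure D2:**
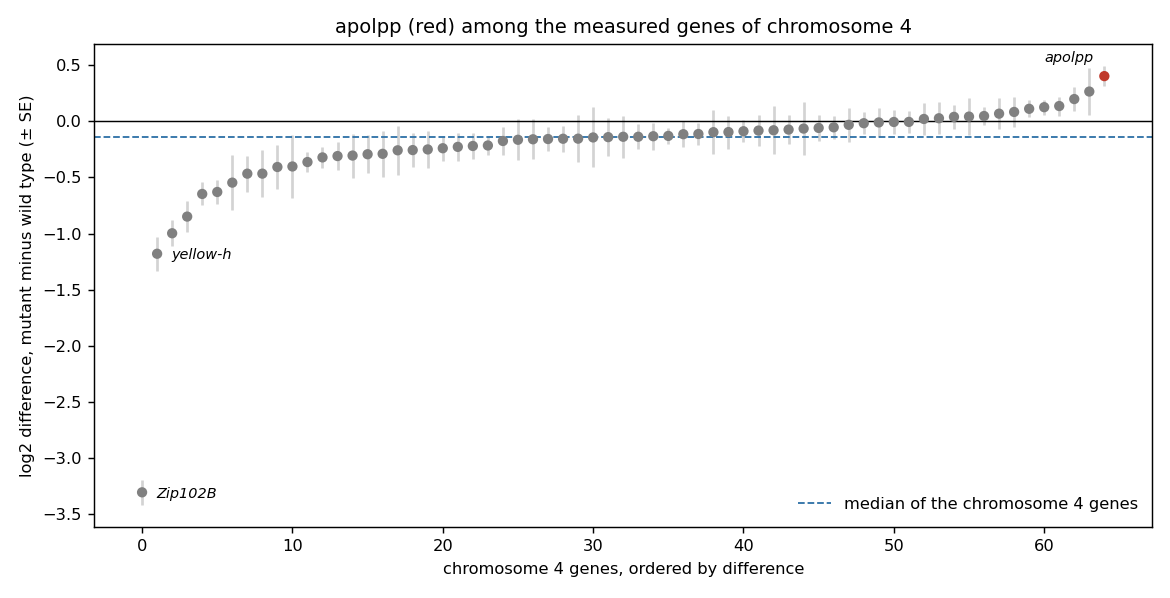
Log2 difference, mutant minus wild type, with its SE (y axis) for the 65 measured chromosome 4 genes in order of size (x axis), with apolpp in red and the median of the chromosome as a dashed line. Most genes lie below 0, Zip102B is lowest at -3.31, and apolpp is highest at 0.40.

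Other genes of lipid transport and storage were taken from 6 lists, written from general knowledge but with earlier results of these data known. The shares below therefore describe these lists and are no test of them. Of 83 listed genes 69 were measured, and the others were not analysed here. Of the 69, 5 rose, 1 fell and 63 did not pass the test, so 8.70% were called, against 4.09% of all genes. Their median difference was 0.06, against 0.02 over all genes, and 44 of the 69 lay above 0 (63.8%, against 56.7% of all genes). With any single array left out, between 1 and 4 of the 69 were called, and their median difference lay between 0.03 and 0.10.

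Genes of triglyceride storage and lipolysis held 4 of these 6 calls. Its 18 measured genes included 3 that rose, 1 that fell and 14 without a call, and the median difference was 0.16. Called or not, 14 were higher in mutant larvae and 4 lower. The lower ones without a call were Lsd-1 at -0.50 (limma adjusted p = 0.0538), Lsd-2 at -0.45 (0.371) and Jabba at -0.27 (0.472). The groups did not overlap for Lsd-1 and Lsd-2, and the lowest Lsd-2 reading, 10.15, was on mutant replicate 2. The gene mdy encodes DGAT1, the enzyme of the last step of triglyceride synthesis. It read 9.63, 9.76 and 9.87 in mutant larvae, against 9.16, 9.23 and 9.16 in wild type larvae. The groups were clearly apart, and mdy rose by 0.57 (SE 0.08, limma adjusted p = 0.0133). Leaving out wild type replicate 2 or 3 ended the call (adjusted p = 0.0615 and 0.0735) with differences of 0.60 and 0.56.

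Agpat2 and Agpat4 encode acyltransferases that make phosphatidic acid, a precursor of triglyceride and of membrane lipids. Agpat2 read 10.37, 10.48 and 10.24 in mutant larvae, against 9.61, 9.80 and 9.80 in wild type larvae, and rose by 0.63 (SE 0.09, limma adjusted p = 0.0153). Agpat4 read 11.50, 11.40 and 11.48 in mutant larvae, against 10.91, 11.07 and 11.12 in wild type larvae, and rose by 0.43 (SE 0.08, limma adjusted p = 0.0386). For both genes every mutant array was above every wild type array. The call of Agpat2 was lost without mutant replicate 1 or wild type replicates 2 or 3 (adjusted p between 0.0563 and 0.0637), and that of Agpat4 without any one array (0.0658 to 0.137).

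The called fall in this list was that of mag, which encodes the secreted gut lipase and cholesterol esterase Magro. It read 8.15, 8.22 and 7.84 in mutant larvae, against 9.71, 9.10 and 9.08 in wild type larvae. The highest mutant value lay well below the lowest wild type value. The gene fell by 1.23 (SE 0.19, limma adjusted p = 0.0167), a call that was lost without mutant replicate 1 or 3 (adjusted p = 0.0673 and 0.0638).

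Among 18 measured lipid carriers and scavenger receptors 1 rose, 0 fell and 17 did not pass, and the median difference was 0.13, or 0.04 without mutant replicate 2. Karl encodes a lipocalin, a small secreted protein that binds hydrophobic molecules. It read 8.01, 7.99 and 8.08 in mutant larvae, against 7.30, 7.59 and 7.57 in wild type larvae, and rose by 0.54 (SE 0.10, limma adjusted p = 0.0294). Its groups did not overlap, but the call was kept only without wild type replicate 1 when single arrays were left out (adjusted p between 0.0752 and 0.112 without any other). With its _a probe set left out, the dimmer Karl set gave 0.45 (limma adjusted p = 0.309). The scavenger receptor gene santa-maria, which acts in carotenoid supply to the eye, gave 0.41 (limma adjusted p = 0.0511), and the lipocalin gene NLaz gave 0.24 (0.154).

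Of 8 measured genes of lipid-modified signals, glypicans and their partners, 1 rose, 0 fell and 7 did not pass, with a median difference of -0.06. The gene ihog encodes a Hedgehog co-receptor. It read 7.33, 7.53 and 7.42 in mutant larvae, against 6.94, 7.00 and 7.07 in wild type larvae, and rose by 0.42 (SE 0.08, limma adjusted p = 0.0373). The groups did not overlap, but leaving out any one array ended the call (adjusted p between 0.0571 and 0.155). The signal gene hh gave 0.28 (0.17 without mutant replicate 2) and the glypican gene dlp -0.15 (-0.02 without mutant replicate 1). The hh set was dim, with means of 5.24 in mutant and 4.96 in wild type larvae.

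The other 3 lists held no call by limma. Their counts at an unadjusted p under 0.05 stand beside 2009 of all 11982 genes by limma. Of the LDL receptor family beyond LpR1 and LpR2, 2 genes were measured: yl, the yolk protein receptor of the oocyte, gave -0.005 and cue gave 0.04, with 0 members at an unadjusted p under 0.05. The yl set was dim, with means of 5.15 in mutant and 5.16 in wild type larvae. Of 9 genes of folding and export in the endoplasmic reticulum, through which lipoproteins are secreted, 2 had an unadjusted p under 0.05 by limma. The chaperone gene Gp93 gave -0.32 (limma adjusted p = 0.135), Tango1, an export factor for bulky cargo, gave 0.25, and Hsc70-3, the fly BiP, gave 0.23, or 0.09 without mutant replicate 2. Of 14 regulators of lipid metabolism 1 had an unadjusted p under 0.05 by limma. Akh, which encodes the adipokinetic hormone that mobilises fat, gave 0.41 (limma adjusted p = 0.0992), foxo gave -0.49 and Mondo gave 0.19. Without mutant replicate 2 foxo gave -0.27 and Mondo 0.13.

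**Figure D3:**
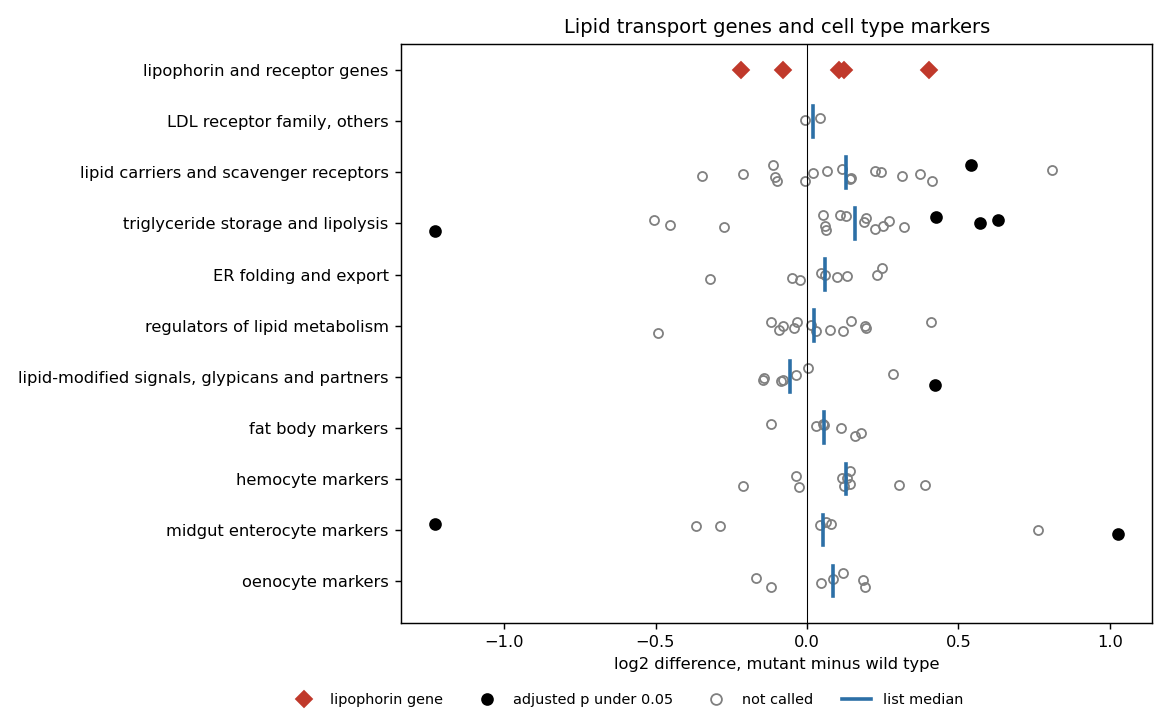
Log2 differences, mutant minus wild type (x axis), of the 5 lipophorin genes (red diamonds) and of the genes of each list (rows), with called genes in black, genes without a call as open circles and the median of a list as a bar. List medians lie between -0.06 and 0.16, and apolpp, a single gene, lies at 0.40. Single list genes lie higher, up to 0.81 in the lipid lists and 1.03 in the marker lists.

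Markers of the tissues that make or handle lipophorin were set beside apolpp. Of 7 measured fat body markers 0 were called by limma and 1 had an unadjusted p under 0.05, against 2009 of all 11982 genes. The median difference of the 7 markers was 0.06. In mutant larvae 6 were higher and 1, AkhR, was lower. The sets of Fbp1, Fbp2, Obp99b and upd2 lay below the median of every array. The median difference was the value of Fbp2, with means of 5.27 in mutant and 5.21 in wild type larvae, so it rests on a dim set. Their median level was 6.30, 6.08 and 6.10 on the mutant arrays, against 6.19, 6.11 and 6.02 on the wild type arrays. Among them Pepck1, an enzyme gene of glucose synthesis, averaged 12.38 ± 0.12 in mutant larvae and 12.27 ± 0.11 in wild type larvae (SD, n = 3 each). Its difference was 0.11, and that of AkhR, the other marker well above the array medians, was -0.12. The storage protein gene Lsp2 averaged 6.61 ± 0.06 in mutant larvae and 6.43 ± 0.06 in wild type larvae (SD, n = 3 each), a difference of 0.18 (limma adjusted p = 0.331). The fat body gene upd2, which encodes a leptin-like cytokine, gave 0.16 (0.10 without wild type replicate 1). The part of fat body content in the difference of apolpp was not tested.

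Of 10 hemocyte (blood cell) markers 0 were called by limma and 2 had an unadjusted p under 0.05. Over all genes 2009 of 11982 had an unadjusted p under 0.05 by limma. The median difference of the hemocyte markers was 0.13. In mutant larvae 7 were higher and 3 lower, the lower ones being eater (-0.21), Ppn (-0.04) and Hml (-0.03). The phagocytosis receptor gene NimC1 gave 0.39 (limma adjusted p = 0.0794), He gave 0.30 (0.16 without wild type replicate 1) and vkg, a collagen IV gene, gave 0.13 (0.06 without mutant replicate 1). Of 7 oenocyte markers 0 were called and 0 had an unadjusted p under 0.05 by limma, with a median of 0.08. There 5 were higher, among them CG18609 at 0.18, svp at 0.19 (0.07 without mutant replicate 2) and FarO at 0.12. The 2 lower ones were Cyp4g1 at -0.17 and eloF at -0.12. Of 8 midgut enterocyte markers 1 rose and 1 fell by a call, with a median of 0.05. Called or not, 5 were higher in mutant larvae and 3 lower. The trypsin gene betaTry rose by 1.03 (SE 0.17, limma adjusted p = 0.0214), a call lost without mutant replicate 2 or wild type replicates 2 or 3 (0.0739 to 0.101). The called fall was that of mag, a member of both lists. The other lower markers were alphaTry at -0.29, with groups that did not overlap, and Mal-A1 at -0.37, with groups that overlapped. The maltase gene Mal-A4 gave 0.76 (limma adjusted p = 0.357), or 0.39 without wild type replicate 1. Of 97 cuticle genes 0 rose and 1 fell, TwdlN by 0.47 (limma adjusted p = 0.0393; 0.0691 to 0.138 when any array but mutant replicate 1 was left out). Their median difference was -0.37 with all arrays and 0.02 without wild type replicate 1. Further examples were Cpr67Fa2 at -0.84 (-0.78 without that array) and Cpr49Af at -0.59 (-0.44 without it).

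The genes whose readings over the 6 arrays were most like those of each lipophorin gene were found among 2901 genes with an SD of at least 0.2 over the arrays. The likeness is Pearson's r over 6 arrays, a description in which the group difference and array effects both take part. For apolpp they were the cytochrome P450 gene Cyp12a4 (r = 0.993), the proteasome subunit gene Rpn8 (0.993) and CG5160 (0.990), which were higher in mutant larvae by 0.51, 0.34 and 0.38. For Apoltp they were RAF2 (0.992), CNBP (0.980) and CG14966 (0.973). For Mtp they were CG13227 (0.997), wus (0.997) and CG13003 (0.989), which like Mtp had lower means in mutant larvae, by -0.59, -0.26 and -0.25. For LpR1 they were Syt12 (0.992), RhoGAP71E (0.988) and CG34026 (0.987), and for LpR2 trbd (0.994), Sur-8 (0.992) and CG8841 (0.988).

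Over the settings tried, the 5 genes differed in how far their sign held. The differences of apolpp and Apoltp were above 0 in all 15 other settings, and that of Mtp was below 0 in all 15, down to -0.02 in size. LpR1 was below 0 in 14 of 15. LpR2 was above 0 in 10 and below 0 in 4 of the 14 settings that could read it. These counts were partly fixed in advance. The filter of probe sets, eBayes with trend and robust, and the replicate block left the differences of all 5 genes as reported. The mean over probe sets and the removal of _s, _x and _a sets left those of apolpp, Apoltp and Mtp as reported too. The apolpp groups did not overlap, so leaving out arrays could not reverse the sign of apolpp.

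**Figure D4:**
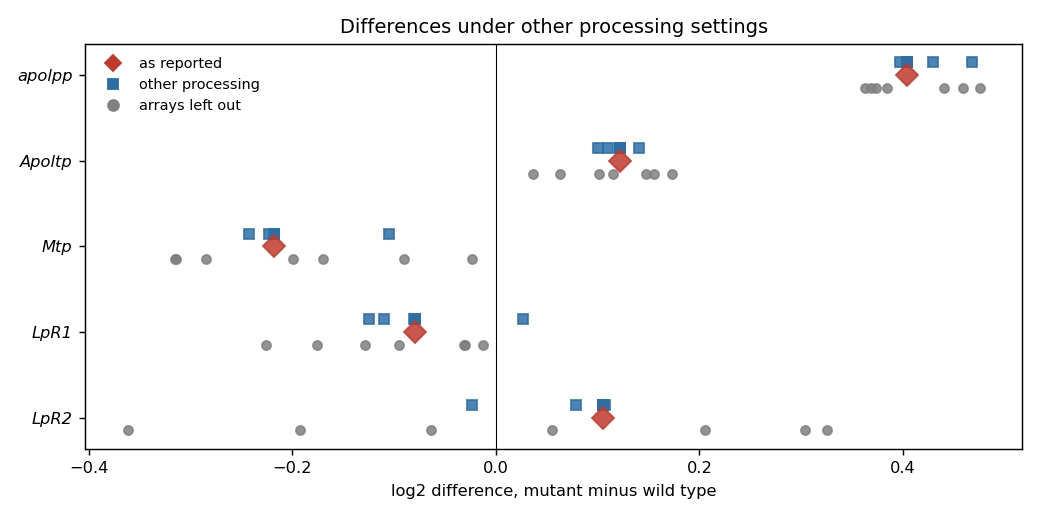
Log2 difference, mutant minus wild type (x axis), of each lipophorin gene (rows) as reported (red diamond), under other processing (blue squares) and with arrays left out (grey circles). The values of apolpp stay between 0.36 and 0.48, whereas those of LpR2 run from -0.36 to 0.33 across 0.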

How the data were processed

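Log2 values, 1 for each probe set and array, were deposited by the authors, who used RMA according to the submitters' processing notes (version and options not given in the sources used here). Usually RMA equalises the distributions of the arrays, which removes a shift common to most genes and shrinks the folds of dim sets. The arrays held 18952 probe sets; 183 control sets were left out. Genes were named through the platform annotation (13647 sets with 1 gene, 402 with several, 4720 with none), with symbols and chromosomes updated by gene ID (13544 matched) from a RefSeq table used only for names, arms and gene order. A gene is represented by its brightest single-gene probe set over the 6 arrays; 1094 genes had more than 1.

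One limma model (version 3.58.1 under R 4.3.3; lmFit, then eBayes; no covariates) covered the remaining 18769 sets, mutant minus wild type, with Benjamini-Hochberg adjustment over all of them. SE is the moderated standard error. No set test was run. The fit was tested on simulated data with independent normal values and planted shifts larger than the difference of apolpp. That test does not cover smaller differences or arrays that stand apart. The number of arrays limits the precision, and nothing in the labels beyond the words biological replicates says how the larvae of different arrays were kept apart.

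The 5 members and the lists were chosen with earlier results of these data known. Genes named are the members, Pof, every called gene and up to 3 genes with the smallest p of each list, the 3 nearest measured neighbours of apolpp on each side, and the 3 genes most like each member. Also named, after their values were seen, are Mpv17, Sox102F and some list members that were lower in mutant larvae or dim. Alternatives were a filter to the upper 60% of probe sets, further quantile normalization, cyclic loess, eBayes with trend and robust, array weights, a replicate block, each array left out, the mean over probe sets, and no _s, _x or _a sets. Leaving out wild type replicate 1 and mutant replicate 2 together was chosen after seeing the data.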

Additional observations from a re-analysis of the deposited data

How the results depend on the processing

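The count of called genes, 490, was 840 with array weights and 202 to 536 with single arrays left out. Without both wild type replicate 1 and mutant replicate 2 it was 712, LpR1 gave -0.23, LpR2 gave -0.36 and apolpp lay 0.65 above the chromosome 4 median; that last distance was 0.46 to 0.68 without single arrays. Of the 5 lipophorin genes 1 was called (0 in the reported fit) with eBayes trend and robust, with array weights, without wild type replicate 1 (0 to 1 over the single arrays) and without both arrays. Among the 69 other lipid genes 3 were called without _s, _x and _a sets, 1 to 4 with single arrays left out, and at most 9, with array weights. The cause of these moves was not tested, except that fewer arrays enter some fits. LpR2 could not be read without _s, _x and _a sets. With the replicate block 476 genes and 4 of the 69 were called, and Agpat4 and ihog lost their calls (limma adjusted p = 0.0708 and 0.0517). Same-numbered arrays deviated together with r = 0.18, 0.13 and 0.03, and mutant replicate 2 gave 0.15 with wild type replicate 3. These values do not decide whether same-numbered arrays share an effect. The reported fit took no pairs, and the replicate block gives the result with them. No normalization moved the median of all genes by more than 0.03. Signal over background is unknown without detection calls, which limits the dimmer LpR1 set most.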
